A study of Homo sapiens with 16 samples.

Results

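HIF-1α and HIF-2α binding was mapped in T47D, a human breast carcinoma cell line, with ChIP-seq, in which DNA attached to a protein is pulled down with an antibody and sequenced, and the stretches of genome where it piles up are listed as peaks. The 4 libraries were 2 replicates with the rabbit polyclonal HIF-1α antibody PM14 and 2 with the rabbit polyclonal HIF-2α antibody PM9. All 4 came from cells grown in DMEM with serum and held at 0.5% oxygen for 16 hours, so that there was no normoxic group to compare with. A site of an isoform was a merged peak that overlapped by at least 1 bp a peak of each of its 2 replicates, and the isoforms' sites were merged by the same rule. This gave 534 sites in T47D, out of 3696 merged sites over the 4 cell lines of the series (A549, HCT116, PC3 and T47D), from 2317 of the 23398 peaks listed. Of the 534 sites, 354 were found with HIF-1α only, 85 were shared, and 95 were found with HIF-2α only. Of the HIF-1α-only sites 311, and of the HIF-2α-only sites 77, lacked a peak of the other isoform in both T47D libraries. Read depth is unknown, so that a missing peak may lie under the threshold of the peak caller and does not show that binding was absent. The labels give numbered replicates and do not say whether these were separate cultures, so that tests measure the spread between these libraries, which may be technical. Peak lists hold no expression and cannot check the identity of the cells.

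Hypoxia-inducible factors are pairs of an oxygen-regulated α subunit and a constitutive β subunit. In the presence of oxygen, prolyl hydroxylases mark the α subunits for destruction through the von Hippel-Lindau protein, and in hypoxia the α subunits accumulate, pair with HIF-1β and bind DNA. HIF-1α and HIF-2α recognise the same short core, ACGTG or GCGTG, written RCGTG with R for A or G. HIF-1 is best known for the induction of glycolytic enzymes, and HIF-2 for targets such as erythropoietin. T47D is a line of the luminal type, which expresses oestrogen and progesterone receptors.

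The following stretches are shown because they hold the HIF core at sites that carry the comparison, namely the highest-ranked shared sites and those at enzymes of glycolysis and oxygen sensing, HIF-1α-only sites at top-ranked promoters and at the mitophagy gene BNIP3, and HIF-2α-only sites among the best ranked. BNIP3 also had a HIF-2α peak in 1 library and EDN1 a HIF-1α peak in 1 library. Each is 61 bases of the GRCh37 plus strand, from 5′ to 3′, named by the nearest protein-coding gene. Capitals mark the core on either strand, so that its reverse complement reads CACGT or CACGC. Shared sites come first, then those of HIF-1α only and those of HIF-2α only.
SNAPC1 (shared, chr14:62217986-62218046): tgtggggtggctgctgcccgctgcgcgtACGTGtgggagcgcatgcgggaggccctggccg
KRT19 (shared, chr17:39692603-39692663): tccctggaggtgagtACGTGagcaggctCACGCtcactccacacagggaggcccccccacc
ALDOA (shared, chr16:30076855-30076915): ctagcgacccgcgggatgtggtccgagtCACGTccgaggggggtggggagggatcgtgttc
LDHA (shared, chr11:18416009-18416069): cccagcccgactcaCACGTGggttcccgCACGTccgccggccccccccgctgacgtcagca
PGK1 (shared, chrX:77359534-77359594): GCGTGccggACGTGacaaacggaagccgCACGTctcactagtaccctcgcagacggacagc
EGLN3 (shared, chr14:34407668-34407728): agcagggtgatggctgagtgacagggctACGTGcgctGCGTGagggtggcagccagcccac
FAM174B (HIF-1α only, chr15:93352394-93352454): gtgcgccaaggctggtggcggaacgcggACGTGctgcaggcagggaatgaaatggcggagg
RAPGEF6 (HIF-1α only, chr5:130971320-130971380): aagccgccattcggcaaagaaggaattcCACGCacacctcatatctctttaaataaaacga
BNIP3 (HIF-1α only, chr10:133795499-133795559): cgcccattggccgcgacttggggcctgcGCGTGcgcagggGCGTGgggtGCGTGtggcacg
S100G (HIF-2α only, chrX:16623406-16623466): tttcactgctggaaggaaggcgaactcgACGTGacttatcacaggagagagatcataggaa
SEPTIN10 (HIF-2α only, chr2:110087072-110087132): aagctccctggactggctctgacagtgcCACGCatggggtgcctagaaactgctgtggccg
MED13L (HIF-2α only, chr12:116828245-116828305): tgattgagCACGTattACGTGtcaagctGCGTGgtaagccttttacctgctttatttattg
RAI1 (HIF-2α only, chr17:17597171-17597231): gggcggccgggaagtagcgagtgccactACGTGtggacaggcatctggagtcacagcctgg
EDN1 (HIF-2α only, chr6:12314237-12314297): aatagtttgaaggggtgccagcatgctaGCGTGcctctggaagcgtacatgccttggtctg
The 6 shared, 3 HIF-1α-only and 5 HIF-2α-only stretches all hold the core because they were cut around it. LDHA, PGK1, MED13L and BNIP3 hold 3 cores each within the 61 bases, the LDHA palindrome counting on both strands. In KRT19 the core shown lay 417 bp from the centre of the site, in BNIP3 154 bp and in EDN1 103 bp, and in the other 11 at most 73 bp. Not every top-ranked site held a core in its central 200 bp. Among the 10 best of each class, NARF, ZNF292, COX20, UQCC4 and GUK1 (HIF-1α only) held none there. Nor did KRT19, C4orf3 and BHLHE40 (shared) or MPHOSPH6 and NR2C2 (HIF-2α only). All of these sites held cores farther out.

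The first question was how the lists of the antibodies compared. HIF-1α replicates 1 and 2 held 761 and 710 peaks, and HIF-2α replicates 1 and 2 held 422 and 424, after leaving out a mitochondrial peak and another off the main chromosomes. HIF-1α peaks had median widths of 1212 and 1231.5 bp, and HIF-2α peaks of 443 and 685.5 bp. Peaks within 1000 bp of a start site of a protein-coding transcript made up 65.7 and 65.5% of the HIF-1α lists and 16.6 and 19.8% of the HIF-2α lists. In all 3 measures the isoforms did not overlap, but 4 libraries allow only 6 relabellings, and the two-sided exact permutation p of 0.333 for each was the smallest this design can give. Of the HIF-1α peaks 57.8 and 61.8% were in the other replicate, against 43.1 and 42.5% of the HIF-2α peaks. Peaks that recurred between replicates were the higher-scoring ones. Their median percentile, which is the share of the library's peaks with a score at or under theirs, was 70.2 and 68.3% with HIF-1α and 77.8 and 77.7% with HIF-2α. Peaks of 1 replicate had medians of 27.9 and 27% with HIF-1α and 30.9 and 31.2% with HIF-2α.

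The site classes differed in where they lay (classes and position come from the same libraries, so that these are descriptions with exact binomial 95% intervals over sites, which are not replicates and cover counting error only). HIF-1α-only sites were mostly promoter sites: 274 of 354 (77.4%, 72.7 to 81.7%) had their centre within 1000 bp of a start site, and 270 spanned one. Among shared sites 35 of 85 were that close (41.2%, 30.6 to 52.4%), and among HIF-2α-only sites 7 of 95 (7.37%, 3.01 to 14.6%). Those 7 were nearest to ST6GAL1, a sialyltransferase, ESRP2, an epithelial splicing factor, KMT2A, a histone methyltransferase, TRPS1, a GATA-type repressor, S100A4, a calcium-binding protein, RAB30, a small GTPase, and SLC6A6, the taurine transporter. They are named because they are all of that kind, and were picked out after their values were seen. Positions in or outside genes were judged by the main transcript of each protein-coding gene, promoters being counted apart. Outside these transcripts lay 67 HIF-2α-only sites (70.5%, 60.3 to 79.4%), 32 shared sites (37.6%, 27.4 to 48.8%) and 59 HIF-1α-only sites (16.7%, 12.9 to 21%). Such sites may lie in noncoding genes. A noncoding start was within 1000 bp of 9 HIF-2α-only, 8 shared and 22 HIF-1α-only sites that were not promoter sites. In introns lay 20 HIF-2α-only sites, 17 shared sites and 15 HIF-1α-only sites. More than 50 kb from any coding start were 33 HIF-2α-only sites (34.7%), 15 shared (17.6%) and 17 HIF-1α-only sites (4.8%).

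**Figure D1:**
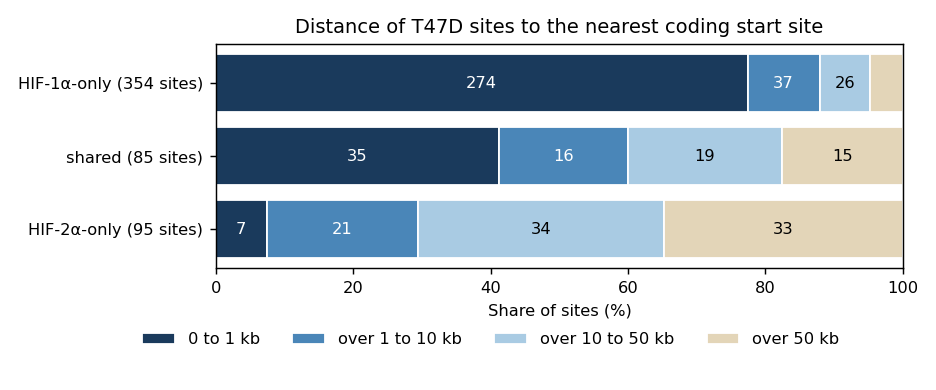
Bars give the share of sites of each class (horizontal axis, percent of the class) in 4 ranges of distance from the site centre to the nearest coding start site, and numbers in the bars count sites. The dark segment, 0 to 1 kb, holds 274 of the 354 HIF-1α-only, 35 of the 85 shared and 7 of the 95 HIF-2α-only sites.

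Widths and scores were also described by class. At the same 85 shared sites, peaks had median widths of 1362 and 1314 bp with HIF-1α and of 695 and 899 bp with HIF-2α, so that the difference in width was seen where both antibodies gave a peak. HIF-1α-only sites had a median width of 1408.5 bp and HIF-2α-only sites of 801 bp. Shared sites stood high in every library, with median percentiles of 90.3 and 89.2% in the HIF-1α libraries and 83.6 and 86.3% in the HIF-2α libraries. HIF-1α-only sites had medians of 65.5 and 62.6%, and HIF-2α-only sites of 71.3 and 69.3%. A shared site needed a peak in all 4 libraries, and peaks that recurred were the higher-scoring ones. The rule itself thus favours high ranks at shared sites, and their lead is no separate result. Shared sites within 1000 bp of a start ranked at a median of 95 and 94.9% with HIF-1α and 83.6 and 82.5% with HIF-2α, whereas the 50 shared sites farther away ranked at 85.2 and 80.5% with HIF-1α and 84 and 88.9% with HIF-2α. Of the 95 HIF-2α-only sites, 3 had a site of HIF-1α, shared ones included, within 10000 bp and 6 within 100000 bp, centre to centre. Overlapping sites were classed as shared and could not count here. No background of such spacing was taken, so that these counts show neither nearness nor separation.

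Shared sites were led by a site 11135 bp upstream of SNAPC1, a subunit of the complex that binds and activates promoters of small nuclear RNA genes. Its scores were 1799.5 and 2161.2 with HIF-1α and 818.4 and 993.3 with HIF-2α, at or above percentile 99.4 in each of the 4 libraries. The nearest start of any annotated gene there, 122 bp away, was that of the long noncoding RNA HIF1A-AS3. Next came a site 8490 bp upstream of KRT19, a keratin of luminal epithelium, with 1047.2 and 1119.7 for HIF-1α and 914.6 and 933.8 for HIF-2α. It held the highest nuclear peak of the first HIF-2α library. The third was the promoter of ALDOA, the glycolytic aldolase, with 1170.2 and 1222.1 for HIF-1α and 428 and 587.2 for HIF-2α. The others of the first 10 were nearest to STC2, a secreted glycoprotein hormone, ZNF395, a zinc finger protein, KDM4B, a histone demethylase, C4orf3, BHLHE40, a transcriptional repressor, OR1I1, an olfactory receptor, and RRP12, a ribosome assembly factor. At OR1I1 the order of the isoforms was turned: scores were 321.4 and 312.6 with HIF-1α and 897.7 and 1107.5 with HIF-2α, which gave the highest peak of the second HIF-2α library. At RRP12 they were 2054.7 and 2339.9 with HIF-1α and 183.6 and 272.6 with HIF-2α. The name RRP12 gives the nearest coding start only, and which gene that promoter site acts on was not tested.

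HIF-1α-only sites were led by FAM174B, whose promoter site scored 1719.2 and 1951.5 in the HIF-1α libraries and had no HIF-2α peak in T47D. NARF, which encodes a prelamin-binding nuclear protein, followed with 1688.8 and 1911.1. The next were ZNF292, a zinc finger protein, with 918.2 and 851.2, and COX20, an assembly factor of cytochrome c oxidase, with 692.1 and 863.6. SLC8A3, a sodium-calcium exchanger, had the only site of the 10 away from a promoter, over a coding exon 34008 bp downstream of its start, with 724.1 and 789.4. RAPGEF6, an activator of Rap GTPases, UQCC4, an assembly factor of respiratory complex III, RLF, a zinc finger protein, HK2, the inducible hexokinase, and GUK1, guanylate kinase, completed the 10, with scores of 315.4 to 647.2. All 10 sites had a peak in at least 5 of the 6 HIF-1α libraries of the other cell lines. Among sites that were HIF-1α-only by the rule but had a HIF-2α peak in 1 library, ANKRD37, a hypoxia-responsive ankyrin repeat gene, had the highest HIF-1α scores of T47D, 2244.6 and 2492.7, against 84.4 in the second HIF-2α library (picked out after its values were seen).

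HIF-2α-only sites without any HIF-1α peak lay away from promoters at all 10 of the best ranks. The first was in an intron of FPR3, 1036 bp upstream of a start of FPR1, both receptors for formyl peptides on phagocytes, with HIF-2α scores of 259.7 and 336.5. A shared site lay next to it, 3371 bp upstream of the same start, with 66.5 and 53 for HIF-1α and 336.6 and 407 for HIF-2α. The second was in an intron of CTPS2, a CTP synthase, 44881 bp upstream of S100G, a calcium-binding protein, with 314.9 and 268.3. The third was in an intron of SH3RF3, 283960 bp from the start of SEPTIN10, a cytoskeletal GTPase, with 238.2 and 317.7. A site outside coding genes, 112774 bp upstream of MED13L, a Mediator subunit, scored 373 and 232.7. The remaining 6 were nearest to RAI1, MPHOSPH6, an exosome cofactor, SYT8, a synaptotagmin, NR2C2, an orphan nuclear receptor, BOD1, a mitotic protein, and CXCL12, a chemokine, at 11436 to 211274 bp, with scores of 160.9 to 251.8. With HIF-1α peaks in 1 library allowed, the highest HIF-2α-only rank belonged to a site 23776 bp downstream of the start of EDN1, the vasoconstrictor endothelin-1, with 380.9 and 500.7 for HIF-2α and 97.2 in the first HIF-1α library (likewise picked out).

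**Figure D2:**
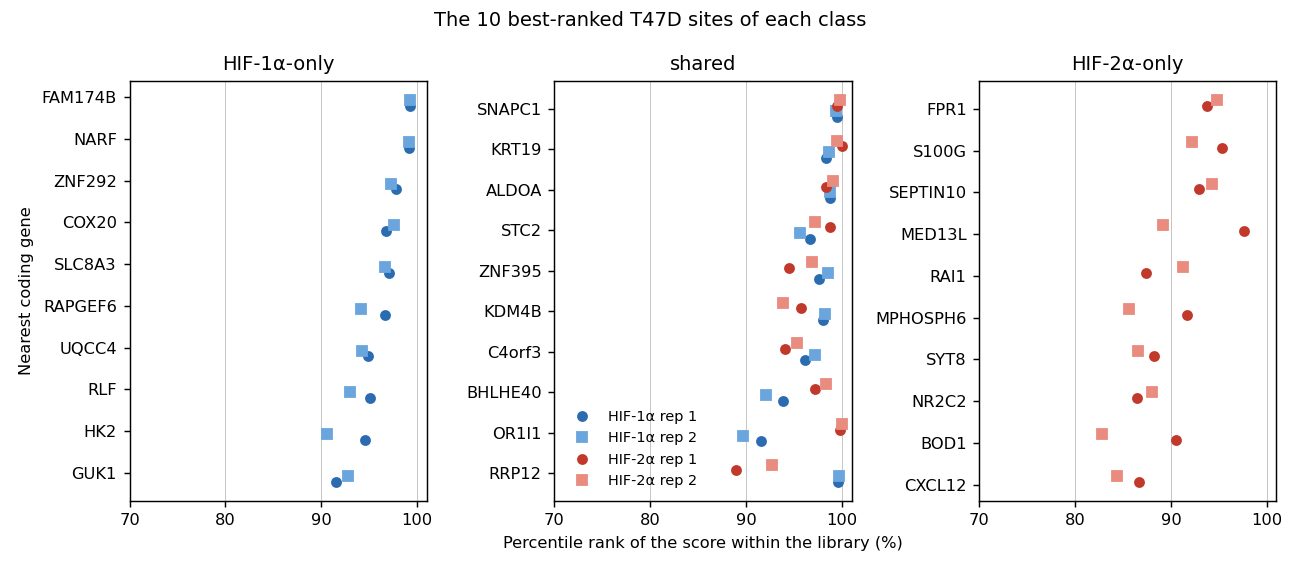
Points give the percentile rank of the peak score within each library (horizontal axis, percent, from 70) at the 10 best-ranked sites of each class, named by nearest coding gene, with blue for HIF-1α, red for HIF-2α, circles for replicate 1 and squares for replicate 2. Shared sites such as ALDOA stand near the top in all 4 libraries, while OR1I1 ranks higher with HIF-2α and RRP12 with HIF-1α.

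Genes were assigned to sites by the nearest coding start, which does not show that a site regulates the gene. Of 19794 coding genes, 426 (2.15%) were nearest to a HIF-1α site, shared sites included, and 163 (0.823%) to a HIF-2α site. Glycolytic enzymes stood far above both shares. Of 19 listed enzymes, 13 (68.4%) were nearest to a HIF-1α site and 7 (36.8%) to a HIF-2α site, and all 7 were shared. No glycolytic gene had a HIF-2α-only site. By nearest start, the shared promoters were those of ALDOA, ENO1 (enolase), LDHA (lactate dehydrogenase), GPI (glucose phosphate isomerase), PGK1 (phosphoglycerate kinase), PFKP (platelet phosphofructokinase) and PKM (pyruvate kinase). PKM had a second shared site in an intron. By the best site of each gene, PFKP was the lowest-ranked of the 7 and is named to complete the count. Its site had a mean percentile of 81, and the PKM promoter site 80.7. ENO1 scored 2221.7 and 2201.1 with HIF-1α and 164.5 and 237.6 with HIF-2α, and GPI 2143 and 2471.4 with HIF-1α and 244.3 and 154.8 with HIF-2α. LDHA scored 901.1 and 805.4 with HIF-1α and 207 and 233.8 with HIF-2α. In rank the isoforms were nearer, with LDHA at percentiles 97.5 and 96.8 of the HIF-1α lists and 91.2 and 89.4 of the HIF-2α lists. HIF-1α-only sites were at GAPDH, ALDOC, HK2, PFKL, TPI1 and HK1. Of these, GAPDH, ALDOC and PFKL had a HIF-2α peak in 1 library, with scores of 53.8, 69.5 and 98.2, and HK2, TPI1 and HK1 had none.

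Genes for the uptake of glucose and the export of lactate and acid showed 7 of 19 with a HIF-1α site (36.8%) and 5 with a HIF-2α site (26.3%), again all shared. SLC16A3, the lactate exporter MCT4, scored 1463.7 and 1416.6 with HIF-1α and 177.8 and 161.5 with HIF-2α. PDK1, the kinase that shuts off pyruvate dehydrogenase, scored 1207.8 and 1297 with HIF-1α and 126.7 and 140.2 with HIF-2α. PFKFB3 and PFKFB4, which set the level of fructose 2,6-bisphosphate, and SLC2A3, the glucose transporter GLUT3, were the other shared genes. SLC2A1, the glucose transporter GLUT1, had a pair of HIF-1α-only sites, at its promoter with 184.4 and 343 and 3921 bp upstream with 56.6 and 59.5. PDK3, a related kinase, had 111 and 208.7 at a HIF-1α-only promoter site.

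In the HIF pathway itself 4 of 12 genes (33.3%) had a HIF-1α site and the same 4 a HIF-2α site, against 2.15% and 0.823% of all coding genes. EGLN3, an oxygen-sensing prolyl hydroxylase, had its shared site in an intron with 803.6 and 655 for HIF-1α and 130.5 and 282.2 for HIF-2α, and a HIF-1α-only site 109072 bp upstream. That upstream site also had a peak of 75.8 in the first HIF-2α library. EGLN1, the main prolyl hydroxylase, scored 294.6 and 596.3 with HIF-1α and 79.3 and 74.2 with HIF-2α. SIAH2, a ubiquitin ligase that acts on the hydroxylases, scored 257.2 and 310.8 with HIF-1α and 134.9 and 211.5 with HIF-2α. CITED2, which competes with HIF for its coactivator, was the one of the 4 that ranked higher with HIF-2α, at percentiles 85.5 and 90.6 against 74.8 and 73.2 with HIF-1α.

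Jumonji histone demethylases, oxygen-dependent enzymes that remove methyl groups from histones, had a HIF-1α site in 8 of 18 cases (44.4%) and a HIF-2α site in 2 (11.1%). Over all coding genes HIF-1α sites also outnumbered HIF-2α sites, 426 genes against 163, and the tilt was not tested as particular to the demethylases. The shared genes were KDM4B, with 959.7 and 949.9 for HIF-1α and 321.9 and 295.3 for HIF-2α, and KDM3A, with 994.3 and 820.1 for HIF-1α and 157 and 133.8 for HIF-2α. KDM7A, KDM5B, KDM4C, KDM2A, KDM6B and KDM5C had HIF-1α-only sites, with scores from 67.8 to 396.3, and none of the 6 had a HIF-2α peak in T47D. Not all of the 6 were promoter sites, since that of KDM7A lay 53708 bp upstream, that of KDM5B 3073 bp upstream and that of KDM6B in an intron 1598 bp downstream.

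Several smaller groups are described next, beside a share of 2.15% of all coding genes at a HIF-1α site. With 0.823% of all coding genes at a HIF-2α site, a HIF-2α count of 0 or 1 in lists this short does not set them apart. These HIF-2α counts also moved with single libraries: without HIF-2α replicate 1 they were 2 for glycogen, 3 for mitochondrial remodelling, 2 for collagen and 4 for growth and stress genes, and without replicate 2 they were 0, 2, 1 and 4, and 2 for lipid genes. The lipid HIF-1α count was 4 without HIF-1α replicate 2. Of 13 genes of glycogen metabolism 4 had a HIF-1α site and 0 a HIF-2α site, namely PPP1R3C and PPP1R3E, which target a phosphatase to glycogen, GBE1, the branching enzyme, and PGM1, phosphoglucomutase. PPP1R3C scored 342.2 and 313 with HIF-1α and had no HIF-2α peak, whereas PPP1R3E and GBE1 had 60 and 56.7 in the second HIF-2α library. Of 14 genes of mitochondrial remodelling, BNIP3L and BNIP3, receptors for mitophagy, and LONP1, a mitochondrial protease, had HIF-1α-only sites, and MXI1, a MYC antagonist, a shared one. BNIP3L scored 637 and 543.6 with HIF-1α and BNIP3 352.5 and 590.2, and each had a HIF-2α peak in the second library, at 73.7 and 105.3. LONP1 had 64.4 in the first HIF-2α library. Of 12 genes that modify collagen, PLOD2, P4HA2 and P4HB had HIF-1α-only sites and P4HA1, a prolyl 4-hydroxylase subunit, a shared one with 773 and 851.6 for HIF-1α and 151.8 and 231.2 for HIF-2α. PLOD2 also had 56.7 in the second HIF-2α library. Of 16 lipid genes SCD, a desaturase, and HILPDA, a lipid droplet protein, had HIF-1α-only sites, and both also had a HIF-2α peak in the first library, at 67 and 96.3. Of 18 growth and stress genes 6 had a HIF-1α site and 2 a HIF-2α site. Among them were PNRC1, a nuclear receptor coactivator, with 1048.8 and 898.4 at a HIF-1α-only promoter site and 80 in the second HIF-2α library, NDRG1, a stress gene, with 152.5 and 195 at a HIF-1α-only site 73745 bp upstream and 74.7 in the first HIF-2α library, and GADD45B and BTG1, growth arrest genes, with lower HIF-1α-only scores. GADD45B had 59.1 in the first HIF-2α library. When HIF-1α-only sites with any HIF-2α peak in T47D were set aside, the HIF-1α counts were 3 for growth and stress genes, 2 for glycogen, 1 for mitochondrial remodelling and 0 for lipid genes. DDIT4, an inhibitor of mTORC1, had a HIF-1α-only promoter site and a shared site 12903 bp upstream, and BHLHE40 had 2 shared sites.

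Angiogenic and vasoactive genes were divided among the classes, with 3 of 18 at a HIF-1α site (16.7%) and 2 at a HIF-2α site (11.1%). The shares of all coding genes were 2.15% and 0.823%. This order turned without HIF-2α replicate 1, with 3 and 5, and with peaks of either replicate, with 5 and 6. ANGPTL4, an angiopoietin-like protein, and ADM, the vasodilator adrenomedullin, had HIF-1α-only sites with 137.9 and 93.2 for ANGPTL4 and 100.1 and 97.7 for ADM. ADM also had 60.4 in the second HIF-2α library. STC2 had a shared site with 677.4 and 577.9 for HIF-1α and 475.8 and 439.8 for HIF-2α. EDN1 alone of all metabolic, hypoxia and vascular genes listed was nearest to HIF-2α-only sites. These were the site described above, which also had 97.2 in the first HIF-1α library, and another 45873 bp downstream with 68.7 and 93.6. Neither held the HIF core in its central 200 bp. VEGFA, the endothelial growth factor, had no site, with a promoter peak of 99.3 in the second HIF-1α library alone and a HIF-2α peak of 75.2 in the first library 136351 bp away, and EPO, erythropoietin, had a HIF-2α peak of 65 in the second library alone (both were picked out after their values were seen).

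Genes of luminal breast epithelium were set beside those of basal and mesenchymal cells. Of 26 luminal genes, KRT19 and KRT8 had shared sites and TFAP2C, a luminal transcription factor, a HIF-2α-only site 105041 bp away with 144.9 and 103.8, and 0 of 18 basal and mesenchymal genes had a site. Of all coding genes 2.56% were nearest to any site, so that a list of 18 is too short for a count of 0 to stand below that share. The luminal HIF-2α count was 6 without HIF-2α replicate 1 and 8 without replicate 2. KRT8, a simple epithelial keratin, ranked higher with HIF-2α, at 220.4 and 264.6 (percentiles 92.2 and 91.5), than with HIF-1α, at 124.2 and 113 (percentiles 70.7 and 68.7). When peaks of either replicate were counted, 10 of the 26 luminal genes were nearest to a HIF-2α peak and 3 to a HIF-1α peak, against 2.9% and 5.03% of all coding genes. The third gene with a HIF-1α peak was TFF3, a secreted trefoil peptide, with 98.5 in the first HIF-1α library 55 bp from its start and no HIF-2α peak. Beside the 3 above, the HIF-2α peaks were nearest to AGR2, ESR1 (oestrogen receptor), FOXA1 and GATA3 (luminal transcription factors), GREB1, PGR (progesterone receptor) and XBP1. These 7 rest on peaks of a single replicate, with scores of 50.8 to 104.4 and, apart from GREB1, which had a separate peak in each library, 1 peak per gene. Their distances ran from 207 bp at GREB1 to 206619 bp at PGR. Of the HIF-2α peaks 67.8 and 63.2% lay over 10 kb from a start. A gene with more space around it is nearest to more such peaks. The share of all coding genes does not allow for this, and a luminal preference was not tested.

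**Figure D3:**
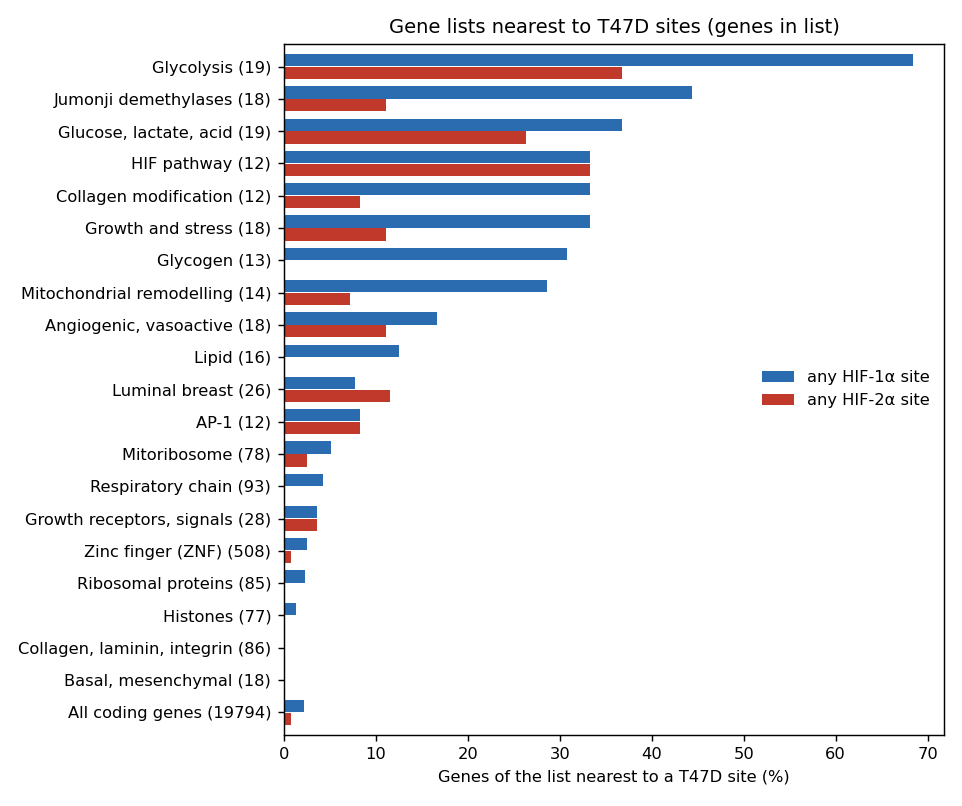
Bars give the share of the genes of each list (number of genes in brackets) that were the nearest coding gene of a T47D HIF-1α site (blue) or HIF-2α site (red), with shared sites counted in both. Glycolytic genes reach 68.4% and 36.8%, against 2.15% and 0.823% of all coding genes in the lowest pair of bars.

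The other lists are given beside the shares of all coding genes, 2.15% with a HIF-1α site and 0.823% with a HIF-2α site. Ribosomal protein genes gave 2 of 85 (2.35%) with a HIF-1α site and 0 with a HIF-2α site, and genes of the ZNF series of zinc finger proteins 13 and 4 of 508 (2.56% and 0.787%), close to those shares. Mitochondrial ribosome genes gave 4 and 2 of 78 (5.13% and 2.56%) and respiratory chain genes 4 and 0 of 93 (4.3% and 0%). Histone genes gave 1 and 0 of 77. Collagens, laminins and integrins gave 0 of 86 with either isoform. Growth receptor and signalling genes gave 1 of 28, BMP4, and AP-1 genes 1 of 12, FOS, each with a shared site. Of the 47 coding genes of the study's own consensus list, 44 were nearest to a HIF-1α site and 24 to a HIF-2α site, and 0 to a HIF-2α-only site. The study chose that list partly on these libraries, so that it is not independent of them.

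In all, 507 coding genes were nearest to a site, 25 of them to more than 1 site. BOD1 and ZNF395 had 3 each. The 3 BOD1 sites were HIF-2α-only, between 23651 and 78969 bp downstream of its start, and had no peak in any library of the other cell lines. Those of ZNF395 were a HIF-1α-only site, which had a peak of 50 in the second HIF-2α library, and 2 shared sites. Of the 25 genes, 7 were nearest to both a shared and a HIF-2α-only site and 5 to both a HIF-1α-only and a shared site. FRMD8 was the only gene nearest to both a HIF-1α-only and a HIF-2α-only site. The HIF-2α-only one, with 106.6 and 84.7 for HIF-2α and 57 in the first HIF-1α library, had its centre 407 bp from a start of the long noncoding RNA NEAT1. The HIF-1α-only one lay farther along the chromosome, with 104.5 and 121.8 for HIF-1α and 52.9 in the second HIF-2α library.

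The isoforms were next compared by rank within shared sites. The HIF-1α percentile minus the HIF-2α percentile had a median of 2.8 points over the 85 sites and ran from -80.3 to 65.5, and 61 sites lay within 20 points of equality. HIF-2α was higher by 40 points or more at 5 sites, nearest to SHANK2, a synaptic scaffold, FPR1, RIOK1, a kinase of ribosome assembly, BCL3, an NF-κB cofactor, and ADAM2. The SHANK2 site, in an intron, scored 60.8 and 50.3 with HIF-1α and 368.4 and 328.8 with HIF-2α. HIF-1α was higher by that much at 2 sites, nearest to FEM1C, a ubiquitin ligase substrate receptor, and ZFAT, a zinc finger protein. The FEM1C promoter scored 546 and 529.5 with HIF-1α and 54.8 and 55.6 with HIF-2α. The 5 sites of the first kind all lay away from promoters, between 3371 and 54420 bp from a start.

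Sequence was then compared between the classes in the central 200 bp, on both strands, with windows 5000 bp to each side as a background and the same width at all coding promoters beside it. RCGTG was present in 273 of 354 HIF-1α-only sites (77.1%, 72.4 to 81.4%), 62 of 85 shared sites (72.9%, 62.2 to 82%) and 65 of 95 HIF-2α-only sites (68.4%, 58.1 to 77.6%). Flanks held it in 27.7, 24.9 and 24.5%, and all coding promoters in 43.3%. With sites resting on 1 HIF-2α library, the share of HIF-2α-only sites was 52.8% without replicate 1 and 40.1% without replicate 2. The ACGTG form was in 51.4, 55.3 and 53.7% of the sites, in the same order, with overlapping intervals, against 10.3, 13 and 13.3% of flanks and 15.9% of promoters. The GCGTG form was in 54% of HIF-1α-only (48.6 to 59.2%), 37.6% of shared (27.4 to 48.8%) and 20% of HIF-2α-only sites (12.5 to 29.5%), against 19.8, 12.4 and 12.2% of flanks and 33.7% of promoters. The order was the same away from promoters, with GCGTG in 53.8% of the 80 HIF-1α-only sites over 1000 bp from a start (42.2 to 65%) and in 18.2% of the 88 such HIF-2α-only sites (10.8 to 27.8%). These sites also differed in composition, with a median of 11 CpG dinucleotides in the window for HIF-1α-only and 3.5 for HIF-2α-only, and the part of CpG in the difference was not tested.

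**Figure D4:**
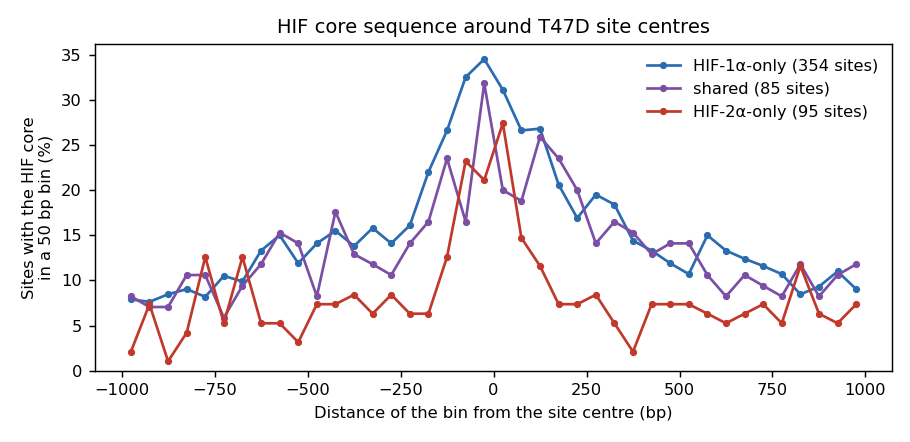
Lines give the share of sites of each class with RCGTG on either strand (vertical axis, percent) in bins of 50 bp by distance of the bin from the site centre (horizontal axis, bp). The highest bins, 34.5% for HIF-1α-only, 31.8% for shared and 27.4% for HIF-2α-only sites, lie next to the centre in each class.

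Other motifs were rarer. AGATAA, the GATA core, was in 18 of 95 HIF-2α-only sites (18.9%, 11.6 to 28.3%), against 14.4% of their flanks, 4.71% of shared and 3.11% of HIF-1α-only sites, whose flanks held it in 13.6 and 9.46%. All coding promoters held it in 3.44%. TGAGTCA, the AP-1 motif, was in 5.26, 5.88 and 2.82% of HIF-2α-only, shared and HIF-1α-only sites, against 3.19, 5.92 and 2.26% of flanks and 2.12% of promoters. TGTTTAC, the forkhead motif, was in 5.26, 2.35 and 1.69%, against 3.72, 1.78 and 1.98% of flanks and 1.24% of promoters. GCCNNNGGC, the AP-2 motif, was in 11.6, 25.9 and 25.7%, against 4.79, 2.37 and 3.95% of flanks and 23.7% of promoters. CAGGTG, an E-box, was in 13.7, 12.9 and 13.8%, against 17.6, 22.5 and 23.2% of flanks and 14.4% of promoters. The full palindrome of the oestrogen response element occurred in 1 HIF-2α-only and 1 shared site. CACGTG, which contains ACGTG on both strands, was in 3.16, 4.71 and 9.6%, against 4.26, 4.73 and 2.97% of flanks and 5.62% of promoters. HIF-1α-only sites held it in 7.3% within 1000 bp of a start (4.52 to 11%) and in 17.5% farther away (9.91 to 27.6%).

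The last question was whether the classes defined in T47D recurred in the 12 libraries of A549, HCT116 and PC3, lung, colorectal and prostate carcinoma lines, which had played no part in defining them. Those libraries used the same antibody for each isoform as in T47D, so that isoform and antibody cannot be told apart in these contrasts. Of the HIF-1α-only sites of T47D, the 2 HIF-1α libraries held a peak at 34.5 and 49.7% in A549, at 84.7 and 81.9% in HCT116, and at 64.4 and 85.3% in PC3. The 2 HIF-2α libraries held one at 17.5 and 20.1% in A549, at 27.7 and 22.3% in HCT116, and at 3.67 and 19.2% in PC3. Every HIF-1α library stood above every HIF-2α library of its cell line, also in A549, where the HIF-2α lists were longer. The mean over cell lines was 66.8% ± 21.8 (SD, n = 3) for HIF-1α and 18.4% ± 6.79 (n = 3) for HIF-2α. The difference of 48.4 percentage points was larger than the spread of the libraries (two-sided exact permutation of isoform labels within cell lines, p = 0.00926, the smallest this design can give, adjusted p = 0.0185 by the Benjamini-Hochberg method over 4 tests). List length enters these shares, and with every longer list cut to its best peaks, to about the length of the shortest, which kept all its 272 peaks, the difference was 27.4 points (exact permutation adjusted p = 0.0123).

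HIF-2α-only sites of T47D recurred little with either antibody. The HIF-2α libraries held a peak at 14.7 and 13.7% of them in A549, 8.42 and 7.37% in HCT116, and 4.21 and 14.7% in PC3. The HIF-1α libraries held one at 5.26 and 7.37% in A549, 11.6 and 8.42% in HCT116, and 6.32 and 13.7% in PC3. The means were 10.5% ± 3.29 and 8.77% ± 2.13 (SD over cell lines, n = 3 each), and the difference of -1.75 points was not distinguishable from the spread (exact permutation p = 0.5, adjusted p = 0.5). With lists of about equal length the difference became -4.74 points (exact permutation adjusted p = 0.0123), so that this call changed with list length. The contrast between isoforms was larger for HIF-1α-only than for HIF-2α-only sites by 50.1 points (exact permutation p = 0.00926, adjusted p = 0.0185), and by 38.1 points among sites over 1000 bp from a start (exact permutation adjusted p = 0.0185). Shared sites recurred at 64.1% ± 5.67 in HIF-1α and 58% ± 6.51 in HIF-2α libraries (n = 3 cell lines each), a difference of 6.08 points (exact permutation p = 0.389, adjusted p = 0.5). With lists of about equal length it became 10 points (exact permutation adjusted p = 0.0278).

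**Figure D5:**
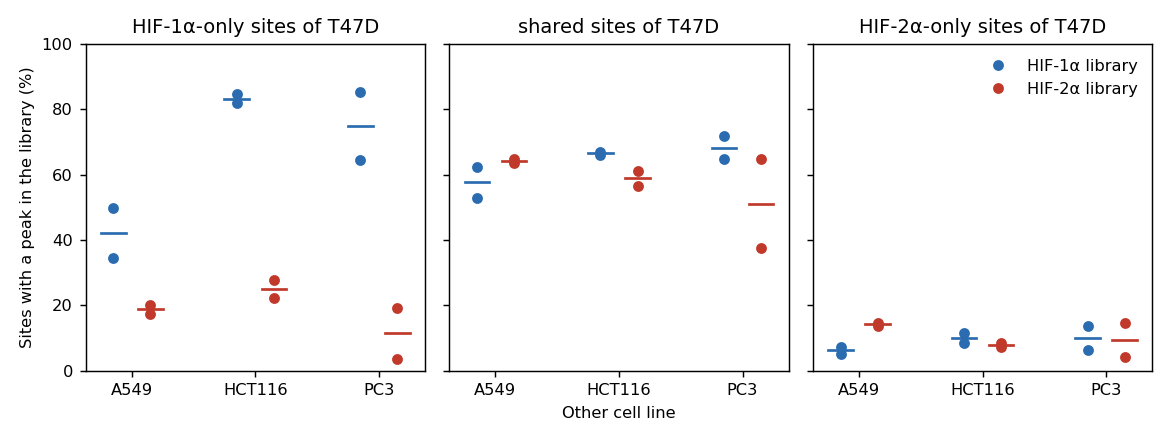
Points give the share of the T47D sites of a class (vertical axis, percent) that overlap a peak in each HIF-1α (blue) or HIF-2α (red) library of the other cell lines, with bars for the mean of 2 replicates. HIF-1α-only sites reach 34.5 to 85.3% in HIF-1α and 3.67 to 27.7% in HIF-2α libraries, whereas HIF-2α-only sites stay between 4.21 and 14.7% in all 12.

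Seen site by site, 72 of the 95 HIF-2α-only sites (75.8%, 65.9 to 84%) had no peak in any of the 12 libraries, against 19 of 85 shared (22.4%, 14 to 32.7%) and 24 of 354 HIF-1α-only sites (6.78%, 4.39 to 9.92%). The best-ranked HIF-2α-only sites of this kind were nearest to PARD3, a polarity protein, DHX35, a helicase, BCHE, butyrylcholinesterase, S100G and SEPTIN10. The site nearest to PARD3 scored 313.5 and 487.3 with HIF-2α, and 75.9 in the first HIF-1α library. That of DHX35 had 72.8 in the first HIF-1α library and that of BCHE 53.8 in the second. The best HIF-1α-only sites of this kind were nearest to PTPRN2, a receptor-type phosphatase, ZNF107, ERCC6L2, a helicase-like protein of DNA repair, GYPC, glycophorin C, and ABHD12, a lipid hydrolase, with scores of 99.9 to 287.3. The PTPRN2 site also had 72.8 in the second HIF-2α library. Among shared sites of this kind was the promoter of PIK3R1, a regulatory subunit of phosphoinositide 3-kinase, which scored 158.2 and 130.6 with HIF-1α and 581.6 and 375.9 with HIF-2α (picked out after its values were seen). The shared KRT19 site had a peak in 2 HIF-1α libraries of other lines and 0 HIF-2α libraries, and the SNAPC1, ALDOA, STC2 and KDM4B sites had one in all 12.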

How the data were processed

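The authors trimmed adapters, aligned ChIP-seq reads to GRCh37 with BWA (0.7.5a-r405), removed reads of low mapping quality, blacklisted regions and duplicates (SAMtools 0.1.19, BEDTools 2.17.0, Picard 2.0.1), and called peaks per library with MACS in control mode, its version not given in the sources used here. Each deposited peak carries a score of the caller, given by the authors without a stated scale and never under 50, which was used for ranks and quoted as given. Read totals are unknown, so the number of peaks limits precision, and intervals cover counting error only. Further filters of the study (a second caller, read counts, HIF-1β) were not applied here. Peaks outside chromosomes 1 to 22, X and Y were left out.

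Sites were merged with an overlap of 1 bp. Coding start sites, genes and positions came from GENCODE release 44 on GRCh37. A promoter site had its centre within 1000 bp of a coding start. Computation used Python 3.11.15 (scipy 1.17.1, numpy 2.4.6), sequences were read by pysam 0.24.0, and matplotlib 3.10.9 drew the figures. Groups came from the labels. Exact permutation tests exchanged isoform labels among libraries, with a threshold of 0.05, and sites were never treated as replicates. Functions were tested on simulated data. The members, gene lists and tests were chosen with earlier results of these data known. Named were the 10 best-ranked sites per class (without a peak of the other isoform), up to 6 genes of each list per class (7 for shared glycolytic genes), genes nearest to 3 or more sites or to both isoform-only classes, the 5 best isoform-only sites private to T47D, and shared sites with ranks 40 points apart. Alternatives were a score of at least 75, lists of about equal length, 50% reciprocal overlap, either-replicate peaks, strict exclusivity, other start sites and windows, a replicate block, and leaving out libraries or cell lines.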

Additional observations from a re-analysis of the deposited data

Results flagged for a closer look

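The T47D shared sites recurred differently in HCT116 and A549. In HCT116 the HIF-1α libraries overlapped 7.65 percentage points more of them than the HIF-2α libraries, with both HIF-1α libraries above both HIF-2α libraries. In A549 the difference was -6.47 points, with both below. The gap between the cell lines was 14.1 points, and the difference was not tested.

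The number of peaks was also ordered differently. T47D had 312.5 more peaks with HIF-1α than with HIF-2α on average, and A549 had the opposite order, with a difference of -714.5, in each case without overlap between the libraries. The gap was 1027 peaks, and the difference was not tested.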

How the results depend on the processing

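Counts of sites moved with how replicates were combined. Either-replicate peaks gave 864 HIF-1α-only, 497 HIF-2α-only and 167 shared sites, with RCGTG in 63.9% of the first and 39% of the second kind, and 66.9% of the first kind within 1000 bp of a start. A score of at least 75 left 58 HIF-2α-only sites, 81% of them with RCGTG, beside 210 of HIF-1α only. Leaving out a T47D library (so that an isoform rests on 1 replicate) gave 324 to 662 sites of HIF-1α only and 81 to 324 of HIF-2α only, 67.3 to 76.5% and 40.1 to 67% of them with RCGTG, and 69.2 to 78% of HIF-1α-only sites within 1000 bp. The count of HIF-1α only was 621 and 662 without HIF-1α replicates 1 and 2, and that of HIF-2α only 309 and 324 without HIF-2α replicates 1 and 2, with RCGTG in 52.8 and 40.1%. With 1 start site per gene the median distance of HIF-1α-only sites was 249.5 bp and 70.9% were within 1000 bp. With start sites of all genes these were 127.5 bp and 83.6%, and HIF-2α-only sites had 6420 bp and 16.8%. By coding starts, as in the main results, HIF-1α-only sites had 161.5 bp and 77.4%, and HIF-2α-only sites 31662 bp and 7.37%. Over the whole site RCGTG was found in 99.2, 100 and 90.5% of sites (HIF-1α-only, shared, HIF-2α-only), and in the central 100 bp in 51.1, 49.4 and 42.1%. Whole sites had median widths of 1408.5, 1467 and 801 bp, and no background of such width was taken. Their shares therefore say little of binding or of a difference between the classes. Recurrence contrasts of HIF-1α-only sites (48.4 points) and between the classes (50.1 points) had an exact permutation adjusted p of 0.0625 with a replicate block, in which 64 relabellings limit the p to 0.0312. Whether the replicate numbers pair the libraries is not known. The correlation of same-numbered deviations was -0.00163 in T47D and -0.115 to 0.0747 in the other cell lines. It was taken over presence or absence of peaks, many of them in 1 library only, and so cannot exclude a pairing. Without A549, HCT116 or PC3 the contrasts were 60.9, 43.4 and 40.8 points for HIF-1α-only sites and 59.6, 47 and 43.7 between the classes, with the smallest p that 36 relabellings allow, 0.0556. For HIF-2α-only sites the small contrast of -1.75 changed sign among sites within 1000 bp of a start (7.14) and without A549 (1.32), and leaving out 1 library gave -3.51 to 0.412, the latter without T47D HIF-2α replicate 2, and 0 without PC3 HIF-2α replicate 2. With lists of about equal length it was -4.74 and for shared sites 10, both past the threshold, and with the same lists -4.92 for HIF-2α-only sites over 1000 bp from a start, an alternative chosen after seeing the data. The causes were not tested. Unknown depth limits every statement on a missing peak.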
